A study of Rattus norvegicus with 24 samples.

Results

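Expression of 10 hypoxia-induced genes that act outside glycolysis was examined in rat neural stem cells and in cells differentiated from them with or without vitamin C. The genes were Vegfa for vessel growth, Slc2a1 and Pdk1 for glucose and pyruvate handling, Bnip3 and Fam162a at mitochondria, Ddit4, Ndrg1 and Mif for signalling, and Ankrd37 and Narf. They were taken from a list of hypoxia-induced genes matched by symbol to the deposited table, and 10 of the 10 listed were found among its 12187 genes. Members were chosen by presence in that table, whose genes all reached at least 0.967 CPM (counts scaled to the library total) in some library, and the CPM values of these genes and their differences between groups were already known when the list was drawn up. The levels and differences below are therefore a description of these libraries, and no test over the list was made.

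The cells were Sprague-Dawley rat cells, and 6 RNA-seq libraries from 3 groups were used, 2 per group. The group called VC+ holds neural stem cells differentiated with vitamin C, the group VC- holds neural stem cells differentiated without it, and D0 holds the neural stem cells themselves. Replicate 1 of VC+ and VC- carries a D4 label and replicate 2 a D5 label. The labels give no dose, age, culture medium or oxygen level and do not say whether the replicates were separate cultures or animals, so the p-values measure the spread between these libraries, which may be technical.

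Hypoxia-inducible factor (HIF) is a transcription factor whose alpha subunit is made all the time and destroyed when oxygen is present. Prolyl hydroxylases of the Egln family mark the alpha subunit for binding by the Vhl ubiquitin ligase, and these enzymes use oxygen, 2-oxoglutarate and iron, with vitamin C keeping the iron reduced. When hydroxylation is slow the alpha subunit pairs with Arnt, binds the core motif ACGTG or GCGTG and switches on genes that bring in blood vessels and glucose, spare mitochondria from pyruvate and remove mitochondria. HIF protein and hydroxylation were not measured in these libraries.

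The HIF core motif was looked for in the 250 bases before the annotated start of each gene, on both strands, in RefSeq promoter sequences of build GRCr8. An ACGTG and its complement inside CACGTG, the E-box that other factors also bind, were counted as 1 site. There were 10 windows for 9 of the 10 genes, 2 of them for Vegfa. Of these windows 80.0% had at least 1 site, 60.0% at least 2 and 40.0% at least 3. Among the 9676 windows of genes in the expression table, 55.0% had at least 1 site, 24.3% at least 2 and 8.78% at least 3, and among all 33469 windows 36.7%, 13.2% and 4.57%. The median GC content was 66.0% for the members' windows, 60.4% for those of genes in the table and 51.2% for all windows. Both windows of Vegfa had 0 sites, and the element described for rat Vegfa lies further upstream than this window. Ndrg1 was not analysed here for sequence.

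The windows of 5 members are shown because they span the range of differences with vitamin C, with the motif and its complement in capitals. Ankrd37 and Narf had the lowest values relative to VC-, Bnip3 and Fam162a stood between, and Slc2a1 was the member higher with vitamin C. They lie at chr16:53001257-53001506 (plus strand), chr10:107017596-107017845 (plus), chr1:203154963-203155212 (minus), chr11:78186051-78186300 (plus) and chr5:138002272-138002521 (plus), each printed 5′ to 3′ on the strand of the gene.
Ankrd37: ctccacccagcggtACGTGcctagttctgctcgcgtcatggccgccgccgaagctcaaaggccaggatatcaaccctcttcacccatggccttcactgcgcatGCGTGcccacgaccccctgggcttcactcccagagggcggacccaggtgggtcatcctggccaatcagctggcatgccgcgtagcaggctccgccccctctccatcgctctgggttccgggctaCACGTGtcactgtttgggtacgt
Narf: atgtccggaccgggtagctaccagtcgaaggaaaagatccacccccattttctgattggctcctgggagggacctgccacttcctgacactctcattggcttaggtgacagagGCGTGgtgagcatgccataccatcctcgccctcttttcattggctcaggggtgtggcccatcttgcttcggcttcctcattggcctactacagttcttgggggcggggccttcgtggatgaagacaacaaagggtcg
Bnip3: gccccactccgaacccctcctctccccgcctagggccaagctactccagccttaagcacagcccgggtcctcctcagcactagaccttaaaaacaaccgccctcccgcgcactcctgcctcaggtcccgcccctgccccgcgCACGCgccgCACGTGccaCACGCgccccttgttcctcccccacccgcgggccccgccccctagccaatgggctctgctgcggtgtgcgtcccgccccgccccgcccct
Fam162a: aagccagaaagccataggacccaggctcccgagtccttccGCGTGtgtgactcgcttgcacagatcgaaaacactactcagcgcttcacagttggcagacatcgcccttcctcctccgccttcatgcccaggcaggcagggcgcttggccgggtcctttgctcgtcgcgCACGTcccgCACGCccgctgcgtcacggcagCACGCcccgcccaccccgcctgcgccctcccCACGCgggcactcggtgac
Slc2a1: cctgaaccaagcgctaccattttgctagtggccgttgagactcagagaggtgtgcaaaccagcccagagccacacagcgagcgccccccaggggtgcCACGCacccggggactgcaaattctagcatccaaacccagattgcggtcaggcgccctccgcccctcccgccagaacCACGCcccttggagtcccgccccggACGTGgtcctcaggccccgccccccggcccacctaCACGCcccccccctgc
Ankrd37 and Bnip3 each had 3 sites, of which 1 was the E-box, Fam162a had 5, Slc2a1 had 4 and Narf had 1. Among the windows shown, Slc2a1 with 4 sites was higher with vitamin C. Narf with 1, Ankrd37 and Bnip3 with 3 each, and Fam162a with 5 were lower. Whether the count of sites goes with the difference was not tested. A match in a window is a description of its letters and not a measured binding site.

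Recovered reads ran from 4811094 to 6641721 in the replicate 1 libraries and from 10299321 to 13184601 in replicate 2, so replicate 2 was the deeper set in each group. Marker levels of other cell types also differed between the replicates, in both directions. The summed level of the 14 microglia and macrophage markers was 5.45, 5.70 and 6.05 CPM in replicate 1 of VC+, VC- and D0 and 769, 954 and 399 CPM in replicate 2. That of the 11 fibroblast, pericyte and meninges markers was 398, 444 and 385 CPM against 4283, 6484 and 10410 CPM, and that of 9 endothelial markers 3.64, 4.65 and 6.94 CPM against 53.7, 44.2 and 53.8 CPM. Oligodendrocyte lineage markers went the other way, with sums of 8821, 12560 and 2135 CPM in replicate 1 of VC+, VC- and D0 and 832, 1113 and 743 CPM in replicate 2. The sums of the neuron markers were 570, 709 and 553 CPM against 490, 496 and 543 CPM. Single neuron markers went both ways between the replicates. In VC+, Map2 was at 206 and 121 CPM and Stmn2 at 9.95 and 80.2 CPM. The 10 neural stem and progenitor markers summed to 3321 to 5627 CPM, and astrocyte markers summed to 5369 and 6889 CPM in VC+ and to 1727 and 2484 CPM in VC-. Fewer cells of a type and less RNA per cell cannot be told apart in these bulk samples.

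The main question was how the members differed between cells differentiated with and without vitamin C. In both replicates 8 of the 10 genes were lower in VC+ than in VC-, 1 was higher (Slc2a1) and 1 was mixed (Pdk1). Among the 11823 genes that entered the test, 26.4% lay lower and 30.0% higher each time. Both VC+ libraries lay below both VC- libraries for 6 members, Ankrd37, Narf, Fam162a, Bnip3, Ddit4 and Mif, a pattern met by 7.82% of all genes, and above them for 0 members, against 8.15% of all genes. The members' median log2 difference was -0.76, -0.67 in replicate 1 and -0.86 in replicate 2, where the median of all genes was 0.018. The split of 9 members below 0 and 1 above was the same with median-of-ratios scaling and with quantile normalization.

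**Figure D1:**
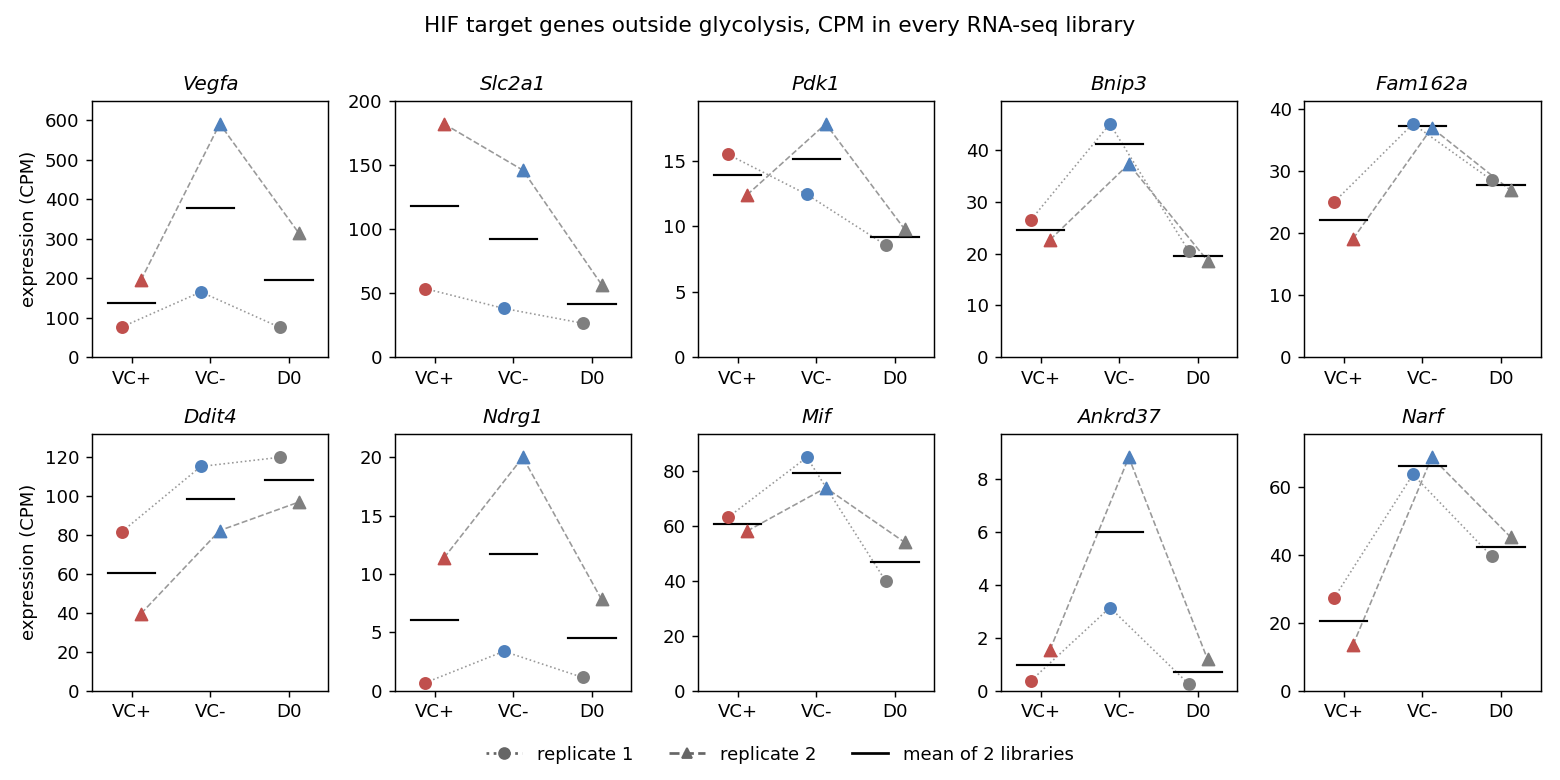
Expression in CPM (linear axes from 0, each gene on its own scale) of the 10 members in VC+, VC- and D0. Circles are replicate 1, triangles replicate 2, grey lines join libraries of the same replicate number, and black bars are means of 2 libraries. The VC- mean was the highest of the 3 for 8 genes, the VC+ mean for Slc2a1 and the D0 mean for Ddit4. The share of all genes with each order was not computed.

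Vegfa encodes the secreted growth factor that draws in new vessels. It stood at 76.7 CPM in replicate 1 and 196 CPM in replicate 2 of VC+, at 165 and 591 CPM in VC-, and at 75.8 and 315 CPM in D0. The groups overlapped, because replicate 2 was higher in each group, by log2 1.34 in VC+, 1.83 in VC- and 2.05 in D0. Within a replicate the VC+ level was 0.464 of the VC- level in replicate 1 (exact 95% interval 0.425 to 0.506) and 0.331 in replicate 2 (0.319 to 0.343). These intervals cover read counting alone and leave out how libraries of a group vary. In replicate 1 microglia markers summed to 5.45 CPM in VC+ and 5.70 CPM in VC-. Oligodendrocyte lineage markers summed to 8821 and 12560 CPM, and astrocyte markers to 5369 and 1727 CPM. In replicate 2 these sums were 769 and 954, 832 and 1113, and 6889 and 2484 CPM. Fibroblast, pericyte and meninges markers summed to 398 and 444 CPM in replicate 1 and to 4283 and 6484 CPM in replicate 2. Endothelial markers summed to 3.64 and 4.65 CPM and to 53.7 and 44.2 CPM. The part of these cells in the Vegfa ratio was not tested.

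The receptors and relatives of Vegfa were mostly read at low levels. Kdr, a signalling receptor, was at 3.35 and 10.7 CPM in VC+ against 3.95 and 5.32 CPM in VC-, and Flt1, which binds Vegfa tightly, at 0 and 1.22 CPM against 0.349 and 2.15 CPM. The co-receptors Nrp1 and Nrp2 were at 9.95 and 18.4 CPM and at 9.38 and 56.8 CPM in VC+, against 10.6 and 20.7 CPM and 13.3 and 45.7 CPM in VC-. Vegfb, another ligand of the family, was at 29.0 and 39.1 CPM in VC+ and at 22.4 and 25.0 CPM in VC-, so both VC+ libraries lay above both VC- libraries. Of the 8 such genes tested, VC+ was lower each time for 4 and higher each time for 1, against 26.4% and 30.0% of all genes. Their median log2 difference was -0.16, and 0 passed the limma test, which called 0 of all 11823 genes tested.

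Slc2a1 encodes GLUT1, the carrier that brings glucose into brain cells. It was at 53.5 and 182 CPM in VC+, 38.02 and 146 CPM in VC-, and 26.5 and 56.6 CPM in D0. In both replicates VC+ was the highest, at 1.41 times the VC- level in replicate 1 (exact 95% counting interval 1.23 to 1.62) and 1.25 times in replicate 2 (1.19 to 1.31). The groups overlapped, as replicate 2 was higher by log2 1.76 in VC+, 1.93 in VC- and 1.08 in D0, and the log2 difference of 0.40 (SE 0.90) turned to -0.56 without replicate 1 of VC- and to -0.48 without replicate 2 of VC+. Against 30.0% and 26.4% of all genes, 3 of the 6 other glucose transporters tested were higher and 1 lower in both replicates. The most abundant of them were Slc2a8, at 35.12 and 40.9 CPM in VC+ against 30.00 and 35.08 CPM in VC-, Slc2a6, at 33.9 and 29.4 CPM against 38.7 and 33.7 CPM, and Slc2a10, at 22.6 and 42.7 CPM against 9.30 and 32.5 CPM. Slc2a8 and Slc2a10 were thus higher and Slc2a6 lower in VC+ in both replicates.

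Pdk1 encodes a kinase that inactivates pyruvate dehydrogenase and so keeps pyruvate out of the citric acid cycle. Its levels were 15.5 and 12.4 CPM in VC+, 12.4 and 17.8 CPM in VC-, and 8.58 and 9.79 CPM in D0. The replicates went opposite ways with vitamin C, with a ratio of 1.25 in replicate 1 (0.970 to 1.61) and 0.696 in replicate 2 (0.590 to 0.820). The log2 difference of -0.10 (SE 0.35) became 0.15 without replicate 2 of VC- and 0.055 without replicate 2 of VC+. The enzyme's own subunit genes Pdha1 and Pdhb were at 85.9 and 80.8 CPM and at 86.0 and 71.2 CPM in VC+, against 94.99 and 74.0 CPM and 84.5 and 59.3 CPM in VC-, and the groups overlapped for both. The kinase Pdk2 was at 37.4 and 52.6 CPM in VC+ and 46.0 and 46.0 CPM in VC-. The kinase Pdk4 was at 7.18 and 18.1 CPM in VC+ and 4.30 and 7.31 CPM in VC-. Over the 11 genes tested that control this step the median was -0.015. Of these, 0 passed the limma test, which called 0 of all 11823 genes.

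Bnip3 encodes a receptor on the outer mitochondrial membrane that recruits the autophagy machinery. It was at 26.6 and 22.7 CPM in VC+, 45.1 and 37.3 CPM in VC-, and 20.6 and 18.7 CPM in D0, so the 3 groups did not overlap. The ratio of VC+ to VC- was close in the replicates, 0.590 (0.504 to 0.690) and 0.608 (0.540 to 0.684). Its paralogue Bnip3l, also a mitophagy receptor, was at 63.1 and 76.3 CPM in VC+, 98.8 and 126 CPM in VC-, and 92.4 and 101 CPM in D0. Across the 15 genes of the mitophagy list tested, which includes Bnip3l, VC+ was lower each time for 4 and higher each time for 2. The shares of all genes were 26.4% and 30.0%, and the median of the list was -0.12. The most abundant genes of this list were Sqstm1, Map1lc3b and Gabarap, which encode autophagy adaptors and membrane proteins. They differed by log2 -0.26 (SE 0.31), -0.24 (SE 0.19) and -0.11 (SE 0.19).

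Fam162a encodes a mitochondrial protein linked to hypoxic cell death in human cells. It was at 25.0 and 19.1 CPM in VC+, 37.6 and 36.9 CPM in VC-, and 28.5 and 26.9 CPM in D0. The VC+ libraries were the lowest and the VC- libraries the highest of the 6. Relative to VC-, the VC+ level was 0.665 (0.563 to 0.785) in replicate 1 and 0.516 (0.456 to 0.584) in replicate 2.

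Ddit4 encodes REDD1, a stress-induced brake on the growth kinase complex mTORC1. It was at 81.7 and 39.6 CPM in VC+, 115 and 82.2 CPM in VC-, and 120 and 96.8 CPM in D0. Both VC+ libraries were below the other 4, by a small margin, since replicate 1 of VC+ (81.7 CPM) lay just under replicate 2 of VC- (82.2 CPM). Of the other genes around mTORC1, Txnip, which encodes a thioredoxin-binding protein, was at 32.9 and 299 CPM in VC+ and 23.5 and 265 CPM in VC-. The sestrin gene Sesn3 was at 150 and 73.0 CPM in VC+ and 115 and 79.7 CPM in VC-, and Tsc2, a subunit of the complex through which REDD1 acts, at 126 and 80.8 CPM against 110 and 84.7 CPM. These 3 genes overlapped between the groups. Of the 9 tested, both VC+ libraries lay below both VC- libraries for 1, a pattern met by 7.82% of all genes, and above them for 0. It was the sestrin gene Sesn2, at 18.4 and 23.5 CPM in VC+ against 35.0 and 39.3 CPM in VC-. Over the 9 tested VC+ was lower each time for 3 and higher each time for 4, against 26.4% and 30.0% of all genes. The limma test called 0 of these 9 and 0 of all 11823 genes.

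Ndrg1 encodes a cytoplasmic protein induced by stress and during differentiation. It was at 0.670 and 11.4 CPM in VC+, 3.37 and 19.99 CPM in VC-, and 1.13 and 7.82 CPM in D0. The replicate 1 values rested on 7, 29 and 9 reads. The replicates differed by more than the groups, by log2 3.34 in VC+, 2.404 in VC- and 2.35 in D0, so the log2 difference of -1.26 (SE 1.54) with vitamin C became 0.42 without replicate 1 of VC+. Within replicates the ratio of VC+ to VC- was 0.199 (0.0735 to 0.463) and 0.569 (0.482 to 0.671). Of the paralogues, Ndrg2 was at 853 and 321 CPM in VC+ against 459 and 284 CPM in VC-. Ndrg3 was at 69.6 and 46.9 CPM in VC+ against 73.1 and 55.0 CPM in VC-, and Ndrg4 at 33.2 and 55.1 CPM against 39.2 and 63.1 CPM.

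Mif encodes a cytokine that is released by many cells and binds Cd74. It was at 63.2 and 58.2 CPM in VC+, 85.1 and 74.0 CPM in VC-, and 40.0 and 54.1 CPM in D0, and the 3 groups did not overlap. The VC+ to VC- ratio was 0.743 (0.668 to 0.827) and 0.787 (0.728 to 0.850). Cxcr4, a chemokine receptor that also binds Mif, was at 64.0 and 116 CPM in VC+ and 40.9 and 135 CPM in VC-, and Cd44, a co-receptor, at 6.03 and 96.7 CPM against 6.63 and 34.1 CPM. Cops5, an intracellular partner of Mif, was at 67.9 and 70.3 CPM in VC+ and 76.2 and 61.7 CPM in VC-. RefSeq lists 9 pseudogenes of Mif, 8 of Bnip3 and 1 each of Ankrd37 and Fam162a in rat. The read counter is not given in the sources used here. Reads of such copies could therefore be split, and the levels of these genes are uncertain to that extent.

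Ankrd37, a small ankyrin repeat protein, had the lowest reads of the members. It was at 0.383 and 1.55 CPM in VC+ (4 and 33 reads), 3.14 and 8.81 CPM in VC- (27 and 164 reads) and 0.252 and 1.18 CPM in D0 (2 and 18 reads). Both VC- libraries were above the other 4. The VC+ to VC- ratio was 0.122 in replicate 1 (0.0310 to 0.350) and 0.175 in replicate 2 (0.117 to 0.256). The gene reached 1 CPM in 4 libraries, including both VC- libraries, and is left out when at least 5 CPM in 2 libraries is required.

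Narf encodes a nuclear protein that binds the tail of prelamin A. It was at 27.4 and 13.5 CPM in VC+, 63.7 and 68.8 CPM in VC-, and 39.6 and 45.3 CPM in D0. The 3 groups did not overlap, with VC+ lowest and VC- highest. The VC+ to VC- ratio was 0.430 (0.371 to 0.496) in replicate 1 and 0.197 (0.173 to 0.224) in replicate 2, so the difference was larger in the pair labelled D5 than in the pair labelled D4, with 1 pair each. Lmna, the source of prelamin A, was at 38.9 and 136 CPM in VC+ and 55.3 and 126 CPM in VC-, and Narfl, a relative of Narf, at 22.7 and 23.5 CPM against 24.8 and 20.7 CPM.

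**Figure D2:**
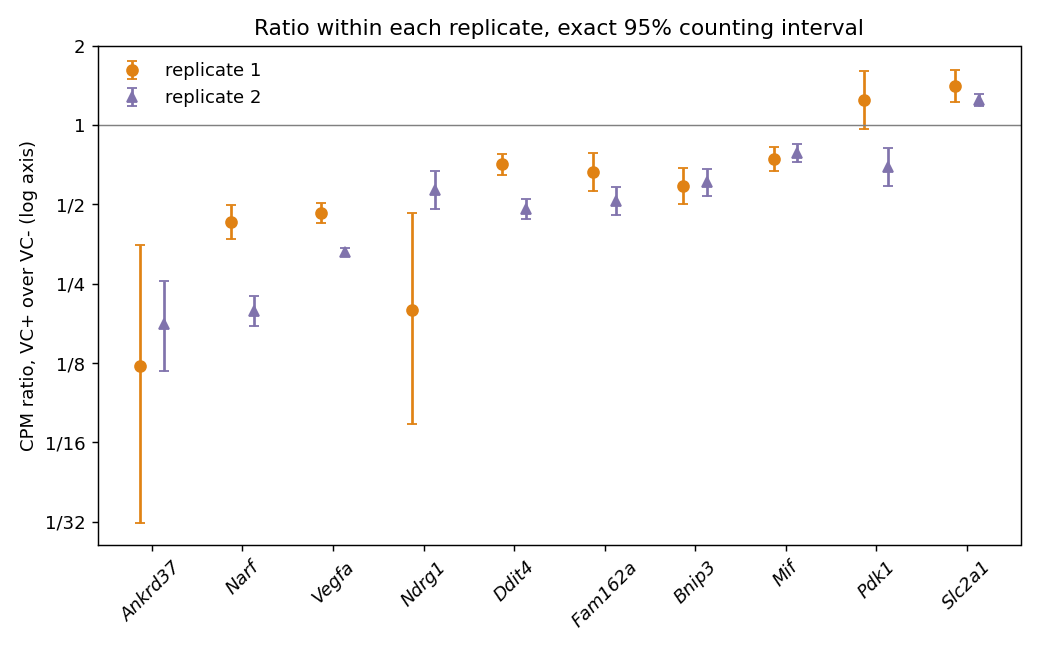
Ratio of CPM in VC+ over VC- (log2-spaced axis) for each member within replicate 1 (circles) and replicate 2 (triangles), with the exact 95% interval for read counting. Both intervals lie below 1 for 8 members and both above 1 for Slc2a1. The share of all genes with such intervals was not computed. For Pdk1 the interval of replicate 1 (0.970 to 1.61) includes 1 and that of replicate 2 (0.590 to 0.820) lies below it.

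The test was limma on log2(CPM + 0.5), fitted to all genes and 3 groups at once, which understates the change of low genes. For VC+ against VC- it called 0 of 11823 genes at a Benjamini-Hochberg adjusted p under 0.05, with 62 at an unadjusted p under 0.05, and so 0 of the 10 members. Narf differed by -1.75 (SE 0.37, unadjusted p 0.00521), Fam162a by -0.76 (SE 0.25, 0.0273) and Bnip3 by -0.73 (SE 0.25, 0.0314), each with an adjusted p of 1.00 in limma. Ankrd37 differed by -2.12 (SE 0.86), Vegfa by -1.35 (SE 0.98), Ddit4 by -0.77 (SE 0.41) and Mif by -0.38 (SE 0.24). This fit has no replicate block, so its SEs and p-values take in the difference between replicates that VC+ and VC- share.

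Replicate number and day label are shared by VC+ and VC-, and the replicates of these groups deviated together, with a correlation of 0.914 across genes. With the replicate as a block limma again called 0 genes (404 at an unadjusted p under 0.05) and edgeR 0 (435), against 0 (66) for edgeR without it. DESeq2 called 6 genes without the block (0.0507% of the genes), 0 of them members, and 32 with it (0.271%), of which 9 were lower in VC+ (0.0761%). Of the 32, 2 were members, both lower. These were Vegfa, with a log2 difference of -1.35 and an adjusted p of 0.00599 in DESeq2 with the block, and Narf, with -1.75 and 0.0189. Ankrd37 had -2.75 and an adjusted p of 0.157 there. The fits on 2 pairs leave few degrees of freedom, and the tools differ on whether any gene passes.

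**Figure D3:**
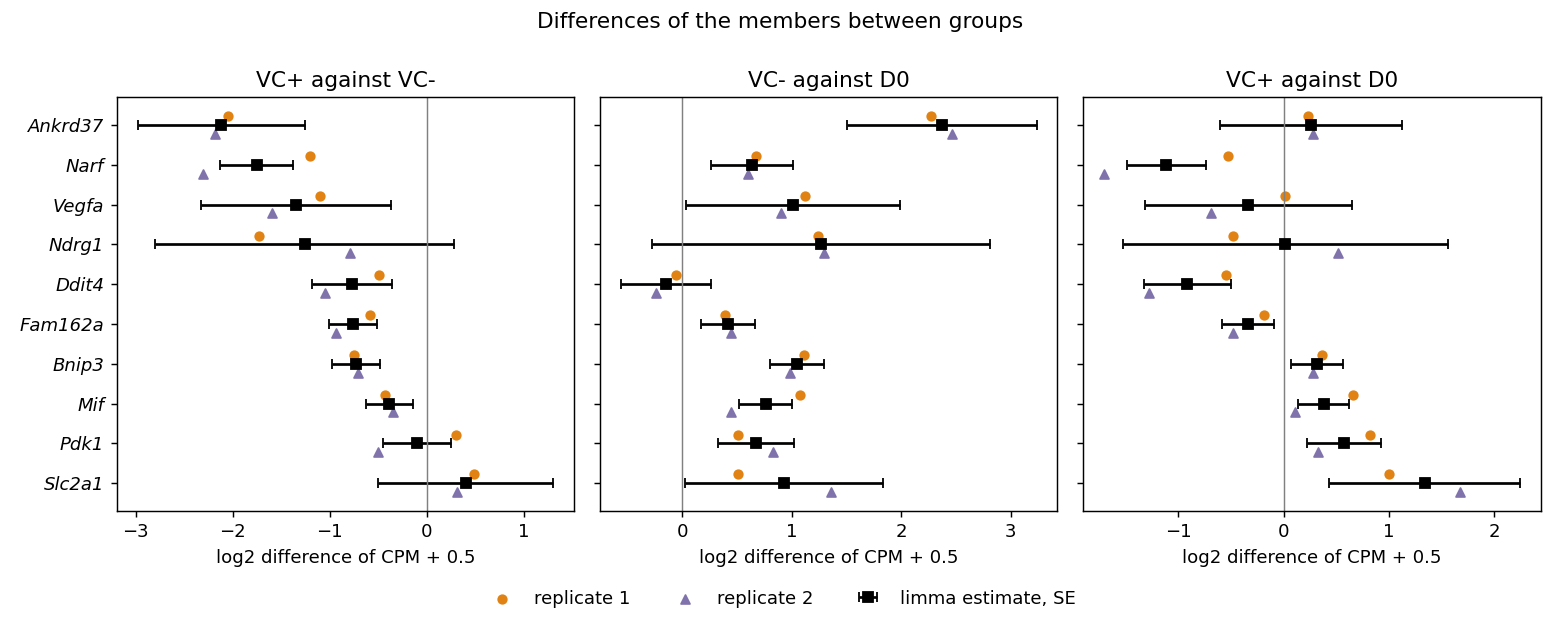
Log2 differences of the members for VC+ against VC-, VC- against D0 and VC+ against D0. Squares are limma estimates with their SE (2 libraries per group), circles and triangles the differences within replicate 1 and 2. Ankrd37 and Narf were the lowest for VC+ against VC-, at -2.12 and -1.75, and Slc2a1 the highest, at 0.40.

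Against the stem cells, most members were higher in cells differentiated without vitamin C. Both VC- libraries lay above both D0 libraries for 6 members, Ankrd37, Bnip3, Mif, Pdk1, Narf and Fam162a, a pattern met by 13.8% of all genes, and below them for 0, against 13.2%. Ankrd37 differed by 2.37 (SE 0.86), Bnip3 by 1.05 (SE 0.25), Mif by 0.76 (SE 0.24), Pdk1 by 0.67 (SE 0.35), Narf by 0.64 (SE 0.37) and Fam162a by 0.42 (SE 0.25) on the log2 scale. Between libraries of the same replicate number, 9 of 10 members were higher in VC-, against 28.6% of all genes, and 1, Ddit4, was lower, against 29.5%. Ankrd37 stood at 12.4 times the D0 level in replicate 1, on 27 against 2 reads (exact 95% counting interval 3.13 to 108), and at 7.45 times in replicate 2 (4.57 to 12.9).

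The limma test called 0 of 11823 genes for VC- against D0 (382 at an unadjusted p under 0.05), edgeR 0 (384) and DESeq2 66, which is 0.558% of the genes, with 0.161% higher in VC-. The member among these 66 was Bnip3, higher in VC-, with an adjusted p of 0.0213 in DESeq2. The members' median log2 difference was 0.85 against 0.0078 for all genes, and it was 0.50 without replicate 1 of D0 and 0.43 without replicate 2 of VC-. Vegfa, at 1.01 (SE 0.98), became -0.012 without replicate 1 of D0, Slc2a1, at 0.94 (SE 0.90), became -0.028 without replicate 2 of VC-, and Ddit4, at -0.15 (SE 0.41), became 0.0074 and 0.096 without these same libraries. With 1 library left out of a group, the difference between replicates enters the comparison. The VC- libraries serve in both this comparison and the one with vitamin C, so opposite signs in the pair are not separate findings.

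In cells differentiated with vitamin C the members stood on both sides of the stem cell level. Both VC+ libraries lay below both D0 libraries for Narf, Ddit4 and Fam162a, 3 members where 13.2% of all genes did so, and above them for Pdk1, Mif and Bnip3, 3 members where 14.2% did. Narf differed from D0 by -1.12 (SE 0.37) and Ddit4 by -0.91 (SE 0.41), while Bnip3, Mif and Pdk1 differed by 0.32 (SE 0.25), 0.38 (SE 0.24) and 0.57 (SE 0.35). Slc2a1 was 2.02 times the D0 level in replicate 1 (1.72 to 2.38) and 3.21 times in replicate 2 (2.98 to 3.46). Vegfa was close to D0 in replicate 1, at 1.01 times (0.910 to 1.13), and below it in replicate 2, at 0.620 times (0.595 to 0.646). Matched by replicate number, 5 members were above D0 and 3 below it each time, against 28.6% and 29.0% of all genes. The limma test called 0 of 11823 genes (507 at an unadjusted p under 0.05), edgeR 0 (505) and DESeq2 135, or 1.14%, with 0 members among them. The members' median of 0.14 turned to -0.31 without replicate 1 of D0 and to -0.25 without replicate 2 of VC+.

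Other hypoxia-induced genes outside glycolysis, 35 of 42 listed, had a median log2 difference of -0.45, with VC+ lower each time for 23 and higher each time for 6. The most abundant were Wsb1, part of a ubiquitin ligase, at 786 and 256 CPM in VC+ against 478 and 362 CPM in VC-, the collagen lysyl hydroxylase Plod1, at 76.5 and 179 CPM against 48.6 and 229 CPM, and the transferrin receptor gene Tfrc, at 56.3 and 55.8 CPM against 116 and 86.7 CPM. Glycolytic enzymes had a median of -0.50 over 18 genes, of which 11 were lower each time and 3 higher. Of all genes tested, 26.4% were lower and 30.0% higher each time. Gapdh, Eno1 and Aldoa were at 579 and 598, 285 and 311, and 225 and 339 CPM in VC+, against 861 and 702, 501 and 618, and 547 and 539 CPM in VC-. These medians were not tested against that of the members. For VC- against D0 the medians were 0.21 for the other hypoxia-induced genes and 0.46 for the glycolytic enzymes, and 0 genes of any list passed the limma test in any of the 3 comparisons.

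For the genes of the HIF pathway itself the VC+ and VC- libraries overlapped in all but 1 of the 14 tested. Most of all genes overlapped too, as both VC+ libraries lay below both VC- libraries for 7.82% and above them for 8.15%. The exception was Tceb2, at 43.3 and 43.5 CPM in VC+ against 67.0 and 53.4 CPM in VC-. The prolyl hydroxylase gene Egln1 was listed but not found among the deposited genes. Hif1a, the main alpha subunit, was at 119 and 83.7 CPM in VC+, 122 and 86.0 CPM in VC- and 144 and 134 CPM in D0. Arnt2, a partner subunit, was at 142 and 107 CPM in VC+ and 147 and 112 CPM in VC-, and the prolyl hydroxylase gene Egln2 at 75.9 and 80.2 CPM against 86.7 and 77.0 CPM. Epas1, the second alpha subunit, was at 86.3 and 120 CPM in VC+, 95.5 and 66.4 CPM in VC- and 27.7 and 45.3 CPM in D0. Egln3, a prolyl hydroxylase that is itself induced by HIF, was at 3.92 and 19.8 CPM in VC+ and 10.2 and 38.6 CPM in VC-. Hif3a, whose products can restrain the others, was at 4.21 and 3.04 CPM in VC+, 8.49 and 4.03 CPM in VC- and 44.9 and 13.3 CPM in D0. VC+ was lower each time for 10 of the 14 and higher each time for 0, against 26.4% and 30.0% of all genes. The list's median log2 difference was -0.20.

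**Figure D4:**
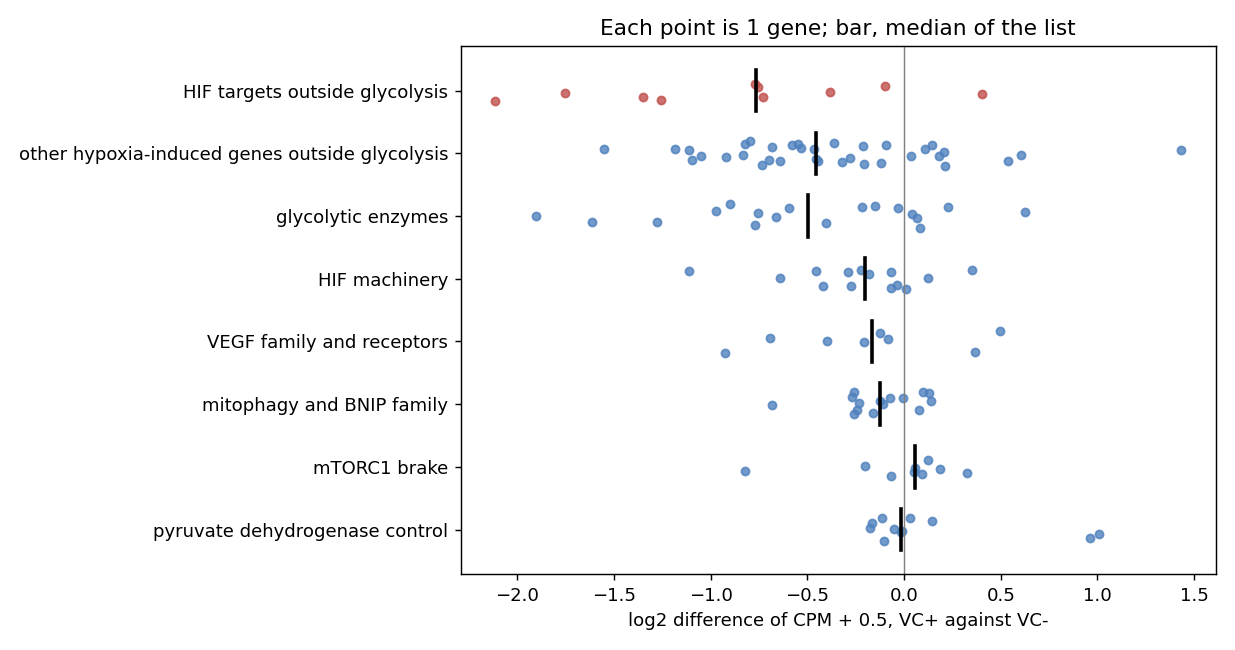
Log2 difference for VC+ against VC- of every gene tested in the members' list (red, top row) and 7 other lists (blue), with the list median as a bar; the vertical scatter has no meaning. Medians were -0.76 for the members, -0.45 for other hypoxia-induced genes and -0.50 for glycolytic enzymes, against 0.059 for the mTORC1 list.

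Among 9808 genes with a mean of at least 5 CPM, those outside the members whose profile over the 6 libraries was most like the mean scaled profile of the members were Zfp362 (Pearson r 0.96), H3f3b (0.94), Dennd1a (0.94), Dcaf5 (0.92) and Rraga (0.91). H3f3b, which encodes the replacement histone H3.3, was at 469 and 497 CPM in VC+, 599 and 604 CPM in VC- and 427 and 471 CPM in D0. Of the members, Ankrd37 followed the mean profile with an r of 0.96 and Ddit4 with 0.11. Each member's own values are part of that mean, so its r cannot be set beside those of the outside genes. The 6 points share their libraries and replicate sets, so these values describe likeness in this table.

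Levels of markers of other cells moved with the comparisons as well. Astrocyte markers were higher in VC+ than in VC- each time for 7 of 10 genes and lower for 0, and their sum in D0 was 1352 and 2323 CPM. Oligodendrocyte lineage markers were lower in VC+ for 7 of 10 and higher for 3. Their sums were 8821 and 832 CPM in VC+, 12560 and 1113 CPM in VC- and 2135 and 743 CPM in D0. Of all genes tested, 26.4% were lower and 30.0% higher in VC+ each time. The part of these markers' cells in the members' differences was not tested.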

How the data were processed

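RNA was measured in 6 libraries, and the series' other 18 samples, from other assays, were not used here. Each deposited value is a gene's CPM as the authors normalized it. The submitters' processing notes list the aligners STAR 2.5.1 and Bowtie2 2.1.0 along with CASAVA 1.7, HOMER 4.9.1, deepTools 2.4.2, edgeR 3.12.1 and build rn5. They give no roles. How reads were counted per gene, with which annotation, and which genes were dropped is not given in the sources used here. In each library 100% of the values were whole multiples of the smallest step (tolerance 1e-06), and dividing by it recovered whole reads. Listed genes held 60.2% to 67.7% of each library's total. A count of 0 allows up to 3 reads, or 0.140 CPM in the deepest library and 0.378 CPM in the shallowest; floors and intervals cover counting error only.

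The filter kept 11823 genes that reached 1 CPM in 2 or more libraries. They were tested in R 4.3.3 on log2(CPM + 0.5) by limma 3.58.1 with a mean trend, two-sided; all 10 members passed that filter. With 2 libraries against 2 no exact test can reach the threshold. Per-replicate ratios carry exact binomial (Clopper-Pearson) intervals. edgeR 4.0.16 and DESeq2 1.42.0 on the recovered reads, other pseudocounts, filters and scalings, a replicate block and leaving out each library were alternatives. The code was tested on simulated data. All 10 members were named, with the 3 most abundant genes of each other list, and some paralogues of members and HIF pathway genes, which the naming rule allowed. Kdr, Flt1, Sesn2 and Stmn2 fell outside that rule and were named after their values were seen. The members and lists were chosen with earlier results of these data known. Promoter sequences are from RefSeq, build GRCr8, matched by symbol. The D4 or D5 label goes with the replicate number in VC+ and VC-, which pairs these libraries; for D0 only the number is shared.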

Additional observations from a re-analysis of the deposited data

How the results depend on the processing

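Of 537 member values under 18 alternatives per comparison, 513 kept their direction and their side of the threshold, 7 passed it and 17 turned round. Several limma alternatives cannot change a member's log2 difference. These are the filters, the replicate block, the fit on the compared groups only and leaving out a library of the third group. The 513 therefore includes values whose direction was fixed in advance. The counts of genes called stayed at 0 in every limma and edgeR alternative, leaving out each library included, and were 6, 66 and 135 in DESeq2 and 32, 457 and 774 in DESeq2 with the replicate block for VC+ against VC-, VC- against D0 and VC+ against D0. For VC- and VC+ against D0 only the number is shared (correlation of replicate differences 0.730 and 0.688), so those block counts are no paired result. The 7 member values that passed the threshold were all from DESeq2. Besides those given for VC+ against VC- and Bnip3 without the block, the block in DESeq2 called Vegfa (adjusted p 0.0285), Ankrd37 (0.00878) and Bnip3 (0.0186) for VC- against D0, where it called 3.87% of all genes, and Slc2a1 (0.00409) for VC+ against D0, where it called 6.55%.

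The members' median for VC+ against VC- ran from -0.76 to -0.59 without 1 library. For VC- against D0 it ran from 0.43 to 0.98 without 1 library, and was 0.83 with a pseudocount of 2, 0.76 with at least 5 CPM, 0.87 after quantile normalization, and 0.88 both in edgeR and in edgeR with the replicate block. For VC+ against D0 it ran from -0.31 to 0.63 without 1 library, the lowest without D0 replicate 1, and was -0.25 without VC+ replicate 2. It was 0.015 with at least 5 CPM, 0.021 after quantile normalization, 0.36 in edgeR, 0.25 in edgeR with the replicate block, 0.34 in DESeq2 and 0.21 in DESeq2 with the replicate block. The cause was not tested.

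Single members turned round when 1 library was left out. For VC+ against VC- the ranges were -0.56 to 1.37 for Slc2a1 (also -0.48), -2.93 to 0.42 for Ndrg1 and -0.35 to 0.15 for Pdk1 (also 0.055). For VC- against D0 they were -0.012 to 2.04 for Vegfa, -0.028 to 1.90 for Slc2a1 and -0.39 to 0.096 for Ddit4 (also 0.0074). For VC+ against D0 they were -0.35 to 0.86 for Ankrd37 (also -0.32), -1.36 to 0.69 for Vegfa (also 0.34) and -1.66 to 1.69 for Ndrg1 (also -1.16), which also turned with a pseudocount of 0.1 (-0.073) and after quantile normalization (-0.049). Depth limits Ankrd37 and Ndrg1, which had 2 to 29 reads in replicate 1.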
